A study of Mus musculus with 12 samples.

Results

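Slc2a1, Hk1, Hk2, Hk3, Pfkl, Pfkfb3, Pkm, Ldha, Ldhb and Slc16a3 were examined in mouse bone marrow-derived macrophages (BMDMs). These 10 genes serve some of the steps from the uptake of glucose to the export of lactate. They were picked by name from the 35275 genes listed. All 10 were among the 12849 genes with enough counts for a test. The cells came from wild type bone marrow and were cultured for 6 days with IL-4, IL-10 and M-CSF, cytokines that give macrophages of the alternatively activated (M2) type. During those 6 days they received DMSO (the solvent control), olaparib (an inhibitor of PARP enzymes, which consume NAD) or MNA (methyl-nicotinamide, a compound of the NAD pathway), with 4 libraries in each group. The genotype and cytokines were shared by all 3 groups, the treatments were given throughout the culture, and no dose stands in the labels. The comparisons asked how each agent moved the glycolytic genes, and whether the agents differed. Both agents were compared with the same DMSO libraries.

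Glucose enters through carriers of the SLC2A family and is trapped inside the cell when a hexokinase adds a phosphate. Phosphofructokinase then commits it to glycolysis, pyruvate kinase forms pyruvate at the end of the pathway, and lactate dehydrogenase turns pyruvate into lactate while it regenerates NAD. In macrophages this route is best known for its rise on inflammatory activation, while the cells of the M2 type lean more on the oxidation of pyruvate in mitochondria.

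Total counts per library were 21146291 to 31446849 with DMSO, 24947905 to 28766984 with olaparib and 24076240 to 27501216 with MNA, so that the ranges overlapped. The library labelled MNA replicate 2 stood apart from the other MNA libraries. For 7 of the 10 genes its level lay within the range of the 4 DMSO libraries (67.4% of all tested genes did so), and for 0 of the 10 within the range of MNA replicates 1, 3 and 4 (22.7% of all tested genes did so). It was kept in the MNA group as labelled, and values without it stand beside those of the 10 genes wherever a call or a direction changed. The macrophage markers Adgre1, Csf1r and Cd68 were at 164 CPM (counts scaled to a common library size) or more in every library. The summed level of 10 macrophage markers nevertheless moved with the groups, at 36994 to 57540 CPM with DMSO, 27264 to 40523 CPM with olaparib, 6469 to 8686 CPM in MNA replicates 1, 3 and 4 and 35318 CPM in MNA replicate 2. With DMSO most of this sum was Chil3, a chitinase-like marker of M2 cells, at 30405 to 50791 CPM. In MNA replicates 1, 3 and 4 Chil3 was at 547 to 884 CPM and was a small part of the sum. Arg1, another M2 marker, was at 435 to 691 CPM with DMSO and 10.4 to 12.95 CPM in those 3 libraries. Csf1r and Itgam went the other way there. Csf1r was at 1649 to 1838 CPM against 436 to 605 CPM with DMSO, and Itgam at 644 to 891 CPM against 365 to 511 CPM. In the fit without MNA replicate 2, 2 of the 10 macrophage markers rose and 5 fell with MNA (27.2% and 26.9% of all tested genes). With olaparib 4 rose and 1 fell in the fit of all libraries (14.3% and 12.8%), with a list median of 0.49 on the log2 scale. Markers of other cells also moved with the groups. The summed level of 11 neutrophil markers was 6.22 to 20.6 CPM with DMSO and 58.5 to 72.7 CPM with olaparib. With MNA it was 83.8 CPM in replicate 4, 22.7 and 27.0 CPM in replicates 1 and 3 and 5.62 CPM in replicate 2. With olaparib most of that level was Mmp8, at 55.1 to 69.6 CPM against 4.67 to 9.75 CPM with DMSO, while S100a9 and Camp were at no more than 2 counts and Elane was at 0. The defining gene Ly6g was at 0 with DMSO, with olaparib and in MNA replicate 2. It ranged from 0 to 13 counts in MNA replicates 1, 3 and 4 (mean 0.174 CPM, highest 0.523 CPM). The summed level of 8 eosinophil, basophil and mast cell markers was 3.92 to 7.11 CPM with DMSO, 30.5 to 58.2 CPM with olaparib and 4.94 to 10.9 CPM with MNA, with Prg2 and Mcpt8 at 0 with DMSO and olaparib. With olaparib 6 of the 8 were at 0 (Prg2, Epx, Mcpt8, Cpa3, Prss34 and Fcer1a), and Siglecf, at 30.5 to 58.2 CPM against 3.75 to 6.95 CPM with DMSO, gave nearly the whole sum. The T and NK cell list (6 genes) reached 3.82, 18.3 and 5.68 CPM in the highest DMSO, olaparib and MNA library, the B cell list (7 genes) 1.74, 2.996 and 7.14 CPM, the dendritic cell list (6 genes) 20.9, 22.9 and 26.6 CPM and the stromal list (6 genes) 0.540, 1.30 and 1.21 CPM. Klrb1c gave most of the T and NK cell sum with olaparib, at 10.6 to 16.0 CPM against 2.20 to 3.35 CPM with DMSO. Cd3e was at no more than 0.906 CPM with olaparib. Erythroid markers (9 genes) summed to 56.9 CPM in MNA replicate 4 and to at most 4.17 CPM elsewhere. The sum of 15 proliferation genes was 341 to 429 CPM with DMSO and 519 to 656 CPM with olaparib. It was 594 to 634 CPM in MNA replicates 1, 3 and 4 and 364 CPM in MNA replicate 2. The part of these lists in the results below was not tested, and in such bulk RNA fewer cells of a type and less RNA per cell cannot be told apart.

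The genes differed widely in level. Per kilobase of exon, Pkm led the DMSO libraries with 369 ± 26.8 CPM per kb (SD, n = 4), and it ranked 95 among 12795 genes with a length. Ldha followed with 303 ± 11.6 CPM per kb (rank 121) and Hk3 with 267 ± 18.9 CPM per kb (rank 142). The DMSO ranges of these 3 genes did not overlap. Hk2 at 24.9 ± 2.48 CPM per kb and Slc2a1 at 24.5 ± 1.33 CPM per kb came next and overlapped in range. Pfkfb3 at 9.65 ± 1.06 CPM per kb and Hk1 at 7.81 ± 0.579 CPM per kb also overlapped. The lowest genes were Pfkl at 2.77 ± 0.104, Ldhb at 2.70 ± 0.677 and Slc16a3 at 2.40 ± 0.684 CPM per kb, 3 levels that overlapped one another.

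With olaparib, 5 of the 10 genes rose and 1 fell against DMSO (edgeR, adjusted p under 0.05). Over all tested genes, 14.3% rose and 12.8% fell. The genes that rose were Ldhb (6.17-fold), Slc16a3 (2.56-fold), Pfkl (1.73-fold), Hk1 (1.36-fold) and Slc2a1 (1.23-fold), and the gene that fell was Hk3 (1.40-fold lower). These 6 genes were also the ones whose 4 olaparib libraries did not overlap the DMSO libraries, as was the case for 41.0% of all tested genes. Without MNA replicate 2 in the fit the same 6 genes were called, where 22.5% of 13023 tested genes rose and 21.2% fell. The median log2 fold change was 0.22 over the 10 genes and 0.0038 over all tested genes.

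With MNA, 3 genes rose against DMSO (Slc16a3, Pfkl and Hk1) and 3 fell (Pfkfb3, Ldha and Hk2), where 16.3% of all tested genes rose and 12.3% fell. The groups did not overlap for Ldha and Hk2, 2 of 10, against 12.4% of all tested genes. Without MNA replicate 2, the same 6 genes were called in the same directions and Ldhb, Hk3 and Pkm also rose, which gave 6 up and 3 down where 27.2% of 13023 tested genes rose and 26.9% fell. Replicates 1, 3 and 4 were clear of DMSO for 7 of the 10 genes, against 54.4% of all tested genes. The 6 calls were lost when MNA and DMSO were fitted without the olaparib libraries, where edgeR called 0 of 12379 genes with an adjusted p of 0.0642 to 0.0763 for these 6. At an unadjusted p under 0.05 that fit held 2622 genes up and 2106 down, the 6 among them, and DESeq2 on all libraries called the same 3 up and 3 down. The median log2 fold change was 0.15 over the 10 genes and 0.00020 over all tested genes.

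Between the agents, Ldhb, Hk2 and Slc2a1 were higher with olaparib than with MNA and Hk3 was lower. This made 3 up and 1 down, where 10.9% of all tested genes were called in each direction. The libraries of both agents did not overlap for these 4 genes (21.2% of all tested genes). In the fit without MNA replicate 2, Ldha and Pfkfb3 were also higher with olaparib and Pfkl was lower, 5 up and 2 down, where 21.5% rose and 20.7% fell. Olaparib and MNA replicates 1, 3 and 4 then did not overlap for 7 of the 10 genes, against 46.3% of all tested genes.

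**Figure D1:**
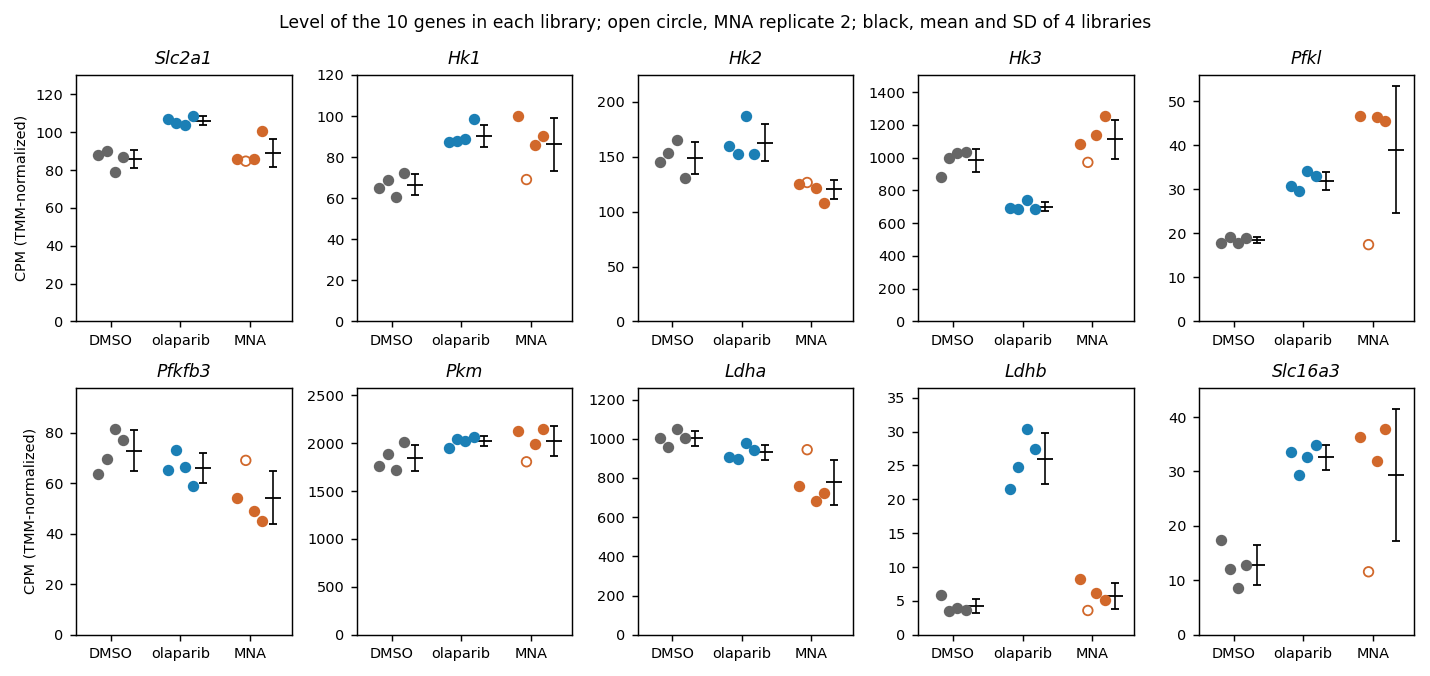
Level of each of the 10 genes in each of the 12 libraries, in CPM of the TMM-normalized library on a linear axis from 0, with 1 panel per gene and 1 point per library. The open circle is MNA replicate 2, and the black mark and bar are the mean and SD of 4 libraries. The olaparib libraries of Ldhb sit between 21.4 and 30.4 CPM, all above DMSO and MNA, and MNA replicate 2 lies among the DMSO libraries for Slc16a3.

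Promoter sequence is shown for 4 genes, 2 of the 3 genes that rose with both agents (Pfkl and Slc16a3) and the lactate dehydrogenase pair (Ldha and Ldhb), of which Ldhb rose with olaparib and Ldha fell with MNA. Each window holds 250 bases before and 50 bases after a RefSeq transcription start of GRCm38.p6 and is written along the gene's strand. Capitals mark the letters ACGTG on either strand, a form of the core of the hypoxia response element. They also cover the E-box CACGTG where that occurs. The other form of that core, GCGTG, was not searched or counted, and it stands uncapitalized in the Pfkl, Ldha and Ldhb windows below.
Pfkl, chr10:78009758-78010057, minus strand: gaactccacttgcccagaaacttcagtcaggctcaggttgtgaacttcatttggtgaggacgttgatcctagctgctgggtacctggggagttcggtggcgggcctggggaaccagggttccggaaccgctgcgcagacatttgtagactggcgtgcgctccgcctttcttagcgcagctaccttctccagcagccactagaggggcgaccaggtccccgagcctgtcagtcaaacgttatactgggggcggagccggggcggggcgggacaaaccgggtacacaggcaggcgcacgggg
Slc16a3, chr11:120948817-120949116, plus strand: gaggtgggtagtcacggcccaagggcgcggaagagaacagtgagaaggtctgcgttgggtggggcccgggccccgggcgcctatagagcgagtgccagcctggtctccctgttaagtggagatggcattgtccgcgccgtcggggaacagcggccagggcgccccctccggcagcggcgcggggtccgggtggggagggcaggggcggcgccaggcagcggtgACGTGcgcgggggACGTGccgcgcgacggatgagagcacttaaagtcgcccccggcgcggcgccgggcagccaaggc
Ldha, chr7:46845554-46845853, plus strand: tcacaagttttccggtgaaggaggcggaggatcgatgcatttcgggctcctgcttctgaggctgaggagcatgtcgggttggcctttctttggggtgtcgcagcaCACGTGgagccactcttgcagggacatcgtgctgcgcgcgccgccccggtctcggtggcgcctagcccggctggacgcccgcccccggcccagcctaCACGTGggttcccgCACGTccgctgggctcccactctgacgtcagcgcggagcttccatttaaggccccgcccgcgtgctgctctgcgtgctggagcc
Ldhb, chr6:142507908-142508207, minus strand: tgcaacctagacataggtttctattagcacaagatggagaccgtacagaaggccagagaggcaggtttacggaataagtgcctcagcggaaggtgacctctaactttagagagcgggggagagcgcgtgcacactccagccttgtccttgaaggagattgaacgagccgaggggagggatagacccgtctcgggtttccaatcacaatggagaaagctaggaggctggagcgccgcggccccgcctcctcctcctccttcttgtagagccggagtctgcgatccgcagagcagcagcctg
The Ldha window shown, 1 of its 2, held ACGTG 5 times, counted on both strands, and CACGTG at 2 places, each of which gives 2 of those 5, while its other window (chr7:46846832-46847131) held 0 of either and 0 of GGGCGG. Hk1, the other gene that rose with both agents, is not shown, and its 2 windows held 0 and 2 copies of ACGTG. Slc16a3 had 2 copies of ACGTG, and Ldhb and Pfkl had 0. Pfkl and the Ldha window shown each had 3 copies of the GC box GGGCGG, Slc16a3 had 1 and Ldhb had 0. Over the 14 RefSeq windows of the 10 genes, 9 (64.3%) held ACGTG, against 19.6% of 32851 windows. The median GC content was 62.8% for the 14 windows and 52.7% for all. The shares of all windows with the other letters searched were 7.15% for CACGTG, 35.7% for GGGCGG and 12.4% for TGACNNNGC, the core of the antioxidant response element, which 1 of the 14 windows held (an Hk1 window). These matches describe the letters in the windows and no binding was measured.

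Slc2a1 encodes GLUT1, the main glucose carrier of many cells (ENSMUSG00000028645, chromosome 4, 119108711 to 119137983, plus strand, GRCm38). Slc2a1 was at 87.8, 89.9, 79.2 and 86.8 CPM in DMSO replicates 1 to 4, at 107, 105, 104 and 109 CPM with olaparib, and at 85.6, 84.7, 85.8 and 100.3 CPM with MNA. Every olaparib library was above every DMSO and MNA library, while the MNA libraries overlapped DMSO and MNA replicate 4 was the highest of them. Slc2a1 rose with olaparib by a log2 fold change of 0.30 (SE 0.065, edgeR adjusted p = 0.0062). With MNA the log2 fold change was 0.05, with a 95% interval of -0.07 to 0.18 (edgeR adjusted p = 0.55), and 0.07 without MNA replicate 2 (edgeR adjusted p = 0.35). It was higher with olaparib than with MNA by 0.25 on the log2 scale (edgeR adjusted p = 0.017), and this call was lost without olaparib replicate 4 (edgeR adjusted p = 0.0539) or MNA replicate 3 (edgeR adjusted p = 0.0658).

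The 3 hexokinase genes moved in different directions. Hk1 encodes a hexokinase found in most tissues (ENSMUSG00000037012, chromosome 10, 62268855 to 62379908, minus strand). Hk1 was at 64.7, 69.0, 60.8 and 72.1 CPM with DMSO, at 87.2, 87.8, 88.6 and 98.5 CPM with olaparib, and at 100.2, 69.1, 85.7 and 90.1 CPM with MNA. The olaparib libraries and MNA replicates 1, 3 and 4 all lay above DMSO, and MNA replicate 2 lay inside the DMSO range. Hk1 rose with olaparib by a log2 fold change of 0.44 (SE 0.10, edgeR adjusted p = 0.0084) and with MNA by 0.37 (SE 0.10, edgeR adjusted p = 0.023). Without MNA replicate 2 the MNA value was 0.46 (edgeR adjusted p = 0.00010). Leaving out DMSO 2 or 3, or MNA 1, 3 or 4, ended the MNA call (edgeR adjusted p of 0.0503 to 0.0703). Between the agents Hk1 differed by 0.07, with a 95% interval of -0.13 to 0.26 (edgeR adjusted p = 0.67), and by -0.02 without MNA replicate 2 (edgeR adjusted p = 0.82).

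Hk2 encodes the insulin- and hypoxia-responsive hexokinase of muscle, fat and many proliferating cells (ENSMUSG00000000628, chromosome 6, 82725025 to 82774454, minus strand). Hk2 was at 145, 154, 166 and 130.4 CPM with DMSO, at 159.5, 153, 187 and 152 CPM with olaparib, and at 125, 127, 121 and 108 CPM with MNA. All 4 MNA libraries, replicate 2 included, were below every DMSO and olaparib library, while olaparib overlapped DMSO. Hk2 fell with MNA by a log2 fold change of -0.31 (SE 0.090, edgeR adjusted p = 0.029) and of -0.33 without MNA replicate 2 (edgeR adjusted p = 0.0080). That fall was not called when DMSO 2 or 3, or MNA 1, 3 or 4, was left out (edgeR adjusted p of 0.0634 to 0.0930). With olaparib Hk2 differed from DMSO by 0.13 (95% interval -0.05 to 0.31, edgeR adjusted p = 0.29), and it was higher with olaparib than with MNA by 0.44 (SE 0.090, edgeR adjusted p = 0.0056).

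Hk3 encodes a hexokinase typical of myeloid cells (ENSMUSG00000025877, chromosome 13, 55005985 to 55021385, minus strand). Hk3 was at 883, 996, 1027 and 1032 CPM with DMSO, at 694, 687, 739.6 and 686 CPM with olaparib, and at 1086, 971, 1137 and 1256 CPM with MNA. The olaparib libraries were the lowest and touched no other group, and MNA replicates 1, 3 and 4 were above DMSO. Hk3 fell with olaparib by a log2 fold change of -0.49 (SE 0.085, edgeR adjusted p = 0.0024) and was lower with olaparib than with MNA by -0.66 (SE 0.085, edgeR adjusted p = 0.00031). With MNA the log2 fold change from DMSO was 0.18 (edgeR adjusted p = 0.12), and it was 0.23 and called without MNA replicate 2 (edgeR adjusted p = 0.011).

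Hk3 made up most of the hexokinase RNA in every library. Of the summed Hk1, Hk2 and Hk3 level per kilobase, its share was 89.1% ± 0.843 with DMSO (SD, n = 4), 83.4% ± 0.469 with olaparib and 90.8% ± 1.07 with MNA (91.1% ± 1.12 without replicate 2, n = 3). The olaparib shares, 82.8% to 83.9%, lay below the DMSO shares of 88.2% to 90.2%. Hk2 made up 8.32% ± 0.886 with DMSO, 11.9% ± 0.703 with olaparib and 6.13% ± 0.976 with MNA, and Hk1 2.61% ± 0.234, 4.65% ± 0.373 and 3.04% ± 0.370. The summed level was 300.0 ± 19.3 CPM per kb with DMSO, 229 ± 9.51 with olaparib and 332 ± 31.7 with MNA. These shares are given without a test.

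**Figure D2:**
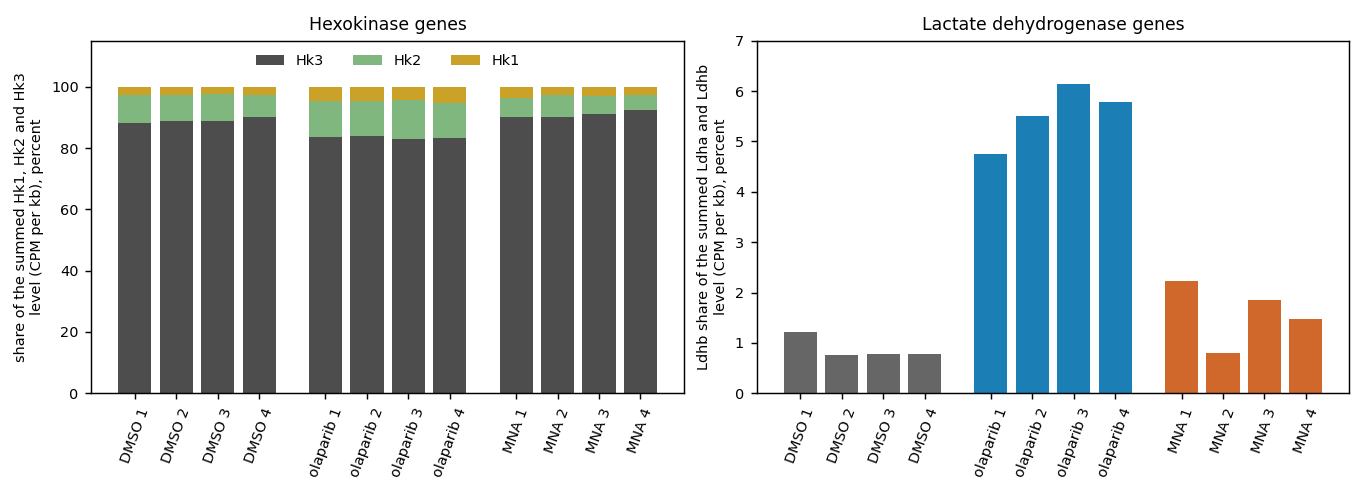
Left, the percent of the summed Hk1, Hk2 and Hk3 level (CPM per kb) held by each gene in each library, as stacked bars. Right, the percent of the summed Ldha and Ldhb level held by Ldhb, with 1 bar per library coloured by group. The Hk3 share is lowest in the olaparib libraries (82.8% to 83.9%), and the Ldhb share is highest in them (4.75% to 6.14%).

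Pfkl encodes the liver-type subunit of phosphofructokinase (ENSMUSG00000020277, chromosome 10, 77986947 to 78010083, minus strand). Pfkl was at 17.9, 19.2, 17.9 and 18.9 CPM with DMSO, at 30.8, 29.5, 34.2 and 33.1 CPM with olaparib, and at 46.7, 17.4, 46.4 and 45.5 CPM with MNA. The olaparib libraries and MNA replicates 1, 3 and 4 were far above DMSO, with those MNA libraries above olaparib, whereas MNA replicate 2 was just below the lowest DMSO library. Pfkl rose with olaparib by a log2 fold change of 0.79 (SE 0.24, edgeR adjusted p = 0.029) and with MNA by 1.08 (SE 0.24, edgeR adjusted p = 0.015). Without MNA replicate 2 these values were 0.79 (SE 0.060, edgeR adjusted p = 5.0e-07) and 1.32 (SE 0.064, edgeR adjusted p = 3.1e-09). Between the agents the difference was -0.29 with all libraries (edgeR adjusted p = 0.41) and -0.53 without MNA replicate 2 (edgeR adjusted p = 1.5e-05). The olaparib call was lost when any DMSO library or olaparib replicate 1, 3 or 4 was left out with MNA replicate 2 still in the fit (edgeR adjusted p of 0.0504 to 0.0688), and the MNA call without MNA replicate 3 (edgeR adjusted p = 0.0537) or 4 (edgeR adjusted p = 0.0518).

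Pfkfb3 encodes a kinase that makes fructose 2,6-bisphosphate, the strongest activator of phosphofructokinase (ENSMUSG00000026773, chromosome 2, 11471433 to 11554077, minus strand). Pfkfb3 was at 63.6, 69.5, 81.5 and 77.2 CPM with DMSO, at 65.4, 73.2, 66.3 and 59.0 CPM with olaparib, and at 54.3, 69.1, 48.9 and 45.1 CPM with MNA. Olaparib overlapped DMSO, and MNA replicates 1, 3 and 4 were below both groups, with MNA replicate 2 among the DMSO libraries. Pfkfb3 fell with MNA by a log2 fold change of -0.42 (SE 0.13, edgeR adjusted p = 0.030) and of -0.56 without MNA replicate 2 (edgeR adjusted p = 0.00019). No fall was called when DMSO 2, 3 or 4, or MNA 1, 3 or 4, was left out (edgeR adjusted p of 0.0567 to 0.0914). With olaparib the difference from DMSO was -0.15 (95% interval -0.39 to 0.10, edgeR adjusted p = 0.41). Against MNA it was 0.28 (edgeR adjusted p = 0.13), or 0.42 without MNA replicate 2, which was called (edgeR adjusted p = 0.0029).

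Pkm encodes the pyruvate kinase of muscle, leukocytes and many other tissues (ENSMUSG00000032294, chromosome 9, 59656368 to 59679375, plus strand). Pkm was at 1758, 1889, 1718 and 2012 CPM with DMSO, at 1952, 2042, 2024 and 2068 CPM with olaparib, and at 2125, 1805, 1995 and 2148 CPM with MNA. The 3 groups overlapped. No difference was called with all libraries: the log2 fold change was 0.13 with olaparib (95% interval -0.02 to 0.29, edgeR adjusted p = 0.23) and 0.13 with MNA (95% interval -0.03 to 0.29, edgeR adjusted p = 0.22). The difference between the agents was 0.0020 (95% interval -0.15 to 0.16, edgeR adjusted p = 0.99), and -0.05 without MNA replicate 2 (edgeR adjusted p = 0.57). Without MNA replicate 2 the MNA value was 0.18 and called (edgeR adjusted p = 0.027). Of the 31-base words in Pkm exons, 34.7% also occur in other genes, the most in Gm6560 (17.9%), and Gm49759 covers 15.3% of its exon bases on the same strand, so that reads there could have been left uncounted.

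Ldha and Ldhb encode the subunits of lactate dehydrogenase, LDHA favouring the making of lactate and LDHB its use. Ldha (ENSMUSG00000063229, chromosome 7, 46841475 to 46855627, plus strand) was at 1003, 956, 1049.9 and 1004 CPM with DMSO, at 906, 896, 978 and 943 CPM with olaparib, and at 759.8, 944, 681 and 725 CPM with MNA. MNA replicates 1, 3 and 4 were the lowest libraries by a wide margin, MNA replicate 2 was also below DMSO, and olaparib overlapped DMSO. Ldha fell with MNA by a log2 fold change of -0.37 (SE 0.094, edgeR adjusted p = 0.020) and of -0.48 without MNA replicate 2 (edgeR adjusted p = 1.4e-05). Leaving out DMSO 3, or MNA 1, 3 or 4, ended this call (edgeR adjusted p of 0.0533 to 0.0681). With olaparib the difference from DMSO was -0.11 (95% interval -0.29 to 0.08, edgeR adjusted p = 0.41). Against MNA it was 0.26 (edgeR adjusted p = 0.066), and it was called without MNA replicate 2 (0.37, edgeR adjusted p = 0.00023) and with DESeq2 (adjusted p = 0.030).

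Ldhb (ENSMUSG00000030246, chromosome 6, 142490249 to 142507957, minus strand) had the largest log2 fold change of the 10 genes with olaparib. Ldhb was at 5.81, 3.51, 3.92 and 3.71 CPM with DMSO (102 to 124 counts), at 21.4, 24.8, 30.4 and 27.5 CPM with olaparib (607 to 788 counts), and at 8.23, 3.58, 6.10 and 5.11 CPM with MNA (100 to 200 counts). The olaparib libraries were all above every other library, and the MNA libraries overlapped DMSO. Ldhb rose with olaparib by a log2 fold change of 2.62 (SE 0.24, edgeR adjusted p = 3.6e-05) and was higher with olaparib than with MNA by 2.18 (SE 0.23, edgeR adjusted p = 0.00011). With MNA the log2 fold change was 0.45 (edgeR adjusted p = 0.16), and 0.63 without MNA replicate 2, which was called (edgeR adjusted p = 0.015). The Ldhb share of the summed Ldha and Ldhb level per kilobase was 0.883% ± 0.217 with DMSO (SD, n = 4), 5.55% ± 0.590 with olaparib and 1.59% ± 0.614 with MNA (1.85% ± 0.383 without replicate 2, n = 3), so that Ldha held most of this RNA in every library. Gm5514 shares 33.0% of the 31-base words of Ldhb, and it had 8 to 78 counts per library. Ldha shares 19.6% of its words with other genes, and the remaining genes apart from Pkm share at most 2.09%.

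Slc16a3 encodes MCT4, a carrier that exports lactate with a proton (ENSMUSG00000025161, chromosome 11, 120948480 to 120960868, plus strand). Slc16a3 was at 17.5, 12.1, 8.64 and 12.9 CPM with DMSO, at 33.5, 29.4, 32.6 and 34.8 CPM with olaparib, and at 36.3, 11.6, 32.0 and 37.8 CPM with MNA. Olaparib and MNA replicates 1, 3 and 4 occupied one range well above DMSO, and MNA replicate 2 lay inside the DMSO range. Slc16a3 rose with olaparib by a log2 fold change of 1.35 (SE 0.31, edgeR adjusted p = 0.0083) and with MNA by 1.21 (SE 0.31, edgeR adjusted p = 0.020), or 1.48 without MNA replicate 2 (edgeR adjusted p = 3.8e-06). The rise with MNA was not called when DMSO 2 or 3, or MNA 1, 3 or 4, was left out (edgeR adjusted p of 0.0518 to 0.0658). Between the agents the difference was 0.15 (95% interval -0.43 to 0.73, edgeR adjusted p = 0.76), and -0.12 without MNA replicate 2 (edgeR adjusted p = 0.58). Slc16a1, which encodes the related carrier MCT1, fell with olaparib instead, from 46.8 ± 4.03 to 33.9 ± 2.25 CPM (log2 fold change -0.47, edgeR adjusted p = 0.017).

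**Figure D3:**
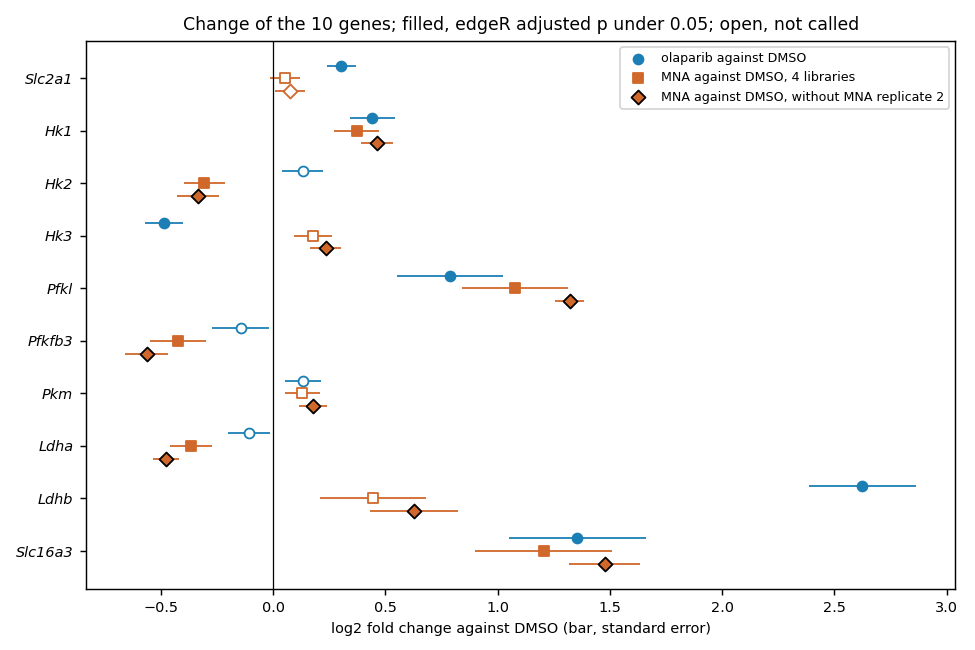
Log2 fold change against DMSO of each gene with olaparib (circles), with MNA in 4 libraries (squares) and with MNA without replicate 2 (diamonds). Bars are standard errors and filled marks have an edgeR adjusted p under 0.05. Ldhb lies at 2.62 with olaparib and 0.45 with MNA, while Slc16a3 lies at 1.35 and 1.21.

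The neighbouring genes of the pathway were read from lists, of which the 3 genes with the smallest p are named for each comparison. The list counts of the fit of all libraries stand beside these shares of all tested genes. With olaparib 14.3% rose and 12.8% fell, with MNA 16.3% rose and 12.3% fell, and between the agents 10.9% were called in each direction. Among other hexose carriers, 6 of 12 were tested and 2 rose and 1 fell with olaparib. Slc2a6, a lysosomal carrier, went from 32.0 ± 6.68 to 84.6 ± 10.4 CPM (log2 fold change 1.40, edgeR adjusted p = 0.020), Slc2a9, a urate carrier, rose by 0.89 and Slc37a2, a sugar phosphate exchanger, fell by 0.43. Slc2a6 was the carrier that rose with MNA (1 up, 0 down, with 2 down at an unadjusted p under 0.05 in both edgeR and DESeq2), to 158 to 172 CPM in replicates 1, 3 and 4 and 32.0 CPM in replicate 2 (log2 fold change 2.04, edgeR adjusted p = 0.014).

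Of the other hexose kinase and phosphofructokinase genes, 9 of 12 were tested, and 1 rose and 1 fell with olaparib. Pfkm, the muscle-type phosphofructokinase, rose from 3.42 ± 0.401 to 6.49 ± 0.703 CPM (log2 fold change 0.92, edgeR adjusted p = 0.036), Adpgk, an ADP-dependent glucokinase, fell by 0.36, and Pfkp, the platelet type, was at 310.4 ± 10.4 and 340.4 ± 6.27 CPM without a call (edgeR adjusted p = 0.11). With MNA 2 rose and 1 fell: Pfkm (log2 fold change 1.25), Adpgk (0.28) and Pfkfb4, a relative of Pfkfb3, which fell by 0.73. Adpgk was lower and Pfkfb4 higher with olaparib than with MNA (log2 differences of -0.64 and 1.07). Fbp1, whose enzyme runs the reverse of the phosphofructokinase step, had 0 counts in MNA replicates 1, 3 and 4 and 449 counts in replicate 2, against 677 to 940 counts with DMSO and 1028 to 1287 with olaparib. Set against a floor of 3 counts per library in those 3 libraries, its mean was at least 244-fold higher with DMSO and at least 362-fold higher with olaparib. With all 4 MNA libraries Fbp1 was called between the agents (edgeR adjusted p = 0.042) and not between MNA and DMSO (edgeR adjusted p = 0.062).

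Among other glycolysis enzymes, 12 of 14 were tested. With olaparib 3 rose and 0 fell (1 fell at an unadjusted p under 0.05 and 1 was called down by DESeq2), namely Gpi1 (298.9 ± 8.19 to 425.8 ± 13.0 CPM, log2 fold change 0.51, edgeR adjusted p = 0.00040), Pgk1 (0.39) and Aldoa (0.23), the isomerase, phosphoglycerate kinase and aldolase of the main route. With MNA 3 rose and 1 fell. Aldoc, an aldolase best known from brain, was at 27.6 to 33.6 CPM in MNA replicates 1, 3 and 4 and 1.36 CPM in replicate 2, against 0.469 to 1.40 CPM with DMSO (log2 fold change 4.61, edgeR adjusted p = 0.014). Pgam2, the muscle phosphoglycerate mutase, rose by 1.17 and Pgam1, the general form, fell by 0.36. The agents differed in 6 of the 12, with 4 higher and 2 lower with olaparib, among them Gpi1 (0.34), Pgam1 (0.36) and Aldoc (-2.56).

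Of the genes for the fate of lactate and pyruvate, 14 of 16 were tested. With olaparib 4 rose and 1 fell: Pdk2, a kinase that switches off pyruvate dehydrogenase, rose from 10.0 ± 1.41 to 18.1 ± 1.10 CPM (log2 fold change 0.86, edgeR adjusted p = 0.0039), and Mpc2, part of the mitochondrial pyruvate carrier, rose by 0.31. With MNA 3 rose and 4 fell: Pdk1 rose by 1.57, and Slc16a1 and Pdp1, a phosphatase that undoes the action of such kinases, fell by 0.46 and 0.54. Mpc2 (0.54) and the pyruvate dehydrogenase subunit genes Pdha1 (0.26) and Dlat (0.28) were higher with olaparib than with MNA, in a list with 4 up and 1 down.

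The pentose phosphate branch leaves glycolysis after the hexokinase step and makes NADPH. All 9 of its listed genes were tested, of which 6 rose and 0 fell with olaparib (0 also at an unadjusted p under 0.05 and with DESeq2), with a list median of 0.53 on the log2 scale. G6pdx, which encodes the first enzyme of the branch, went from 173 ± 12.7 to 318.8 ± 13.6 CPM (log2 fold change 0.88, edgeR adjusted p = 0.0015), Pgd from 199.7 ± 18.9 to 427 ± 9.26 CPM (1.10, edgeR adjusted p = 0.0033) and H6pd rose by 0.53. With MNA 4 rose and 0 fell (1 at an unadjusted p under 0.05, 0 with DESeq2), with a list median of 0.25, including Pgd (1.02), G6pdx (0.68) and Taldo1 (0.84). Pgd was at 453 to 479 CPM in MNA replicates 1, 3 and 4 and 209 CPM in replicate 2. G6pdx was at 298 to 315 CPM in those replicates and 184 CPM in replicate 2. In the fit without MNA replicate 2 the list median was 0.34 with MNA and 0.52 with olaparib. H6pd was the gene that differed between the agents (0.42 higher with olaparib, edgeR adjusted p = 0.0018).

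All 9 glycogen genes were tested. With olaparib 2 rose and 0 fell (2 at an unadjusted p under 0.05, 0 called by DESeq2), among them Pygl, the liver glycogen phosphorylase, from 20.04 ± 4.97 to 65.3 ± 2.14 CPM (log2 fold change 1.71, edgeR adjusted p = 0.0014). With MNA 3 rose and 3 fell, among them Pygl (1.18), Pygb (0.53) and Gyg, the primer of glycogen synthesis, which fell by 0.54. Between the agents 2 were higher with olaparib, among them Ugp2 (0.59), and Pygb was lower (-0.51).

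Of 20 genes for hypoxia-inducible factors and their targets outside glycolysis, 18 were tested. With olaparib 1 rose and 6 fell, with Ndrg1 from 37.2 ± 1.99 to 10.97 ± 0.922 CPM (log2 fold change -1.76, edgeR adjusted p = 0.0080), Epas1, which encodes HIF-2 alpha, at -0.84 and the histone demethylase gene Kdm3a at -0.34. With MNA 2 rose and 6 fell, among them Kdm3a (-0.37), Epas1 (-0.71) and Ankrd37, at 0.200 ± 0.146 CPM against 0.716 ± 0.185 CPM with DMSO. Between the agents 2 were higher and 1 was lower with olaparib. The list medians were -0.11 with olaparib and -0.12 with MNA. Hif1a itself, chosen after its values were seen, was at 98.5 ± 8.47 CPM with DMSO, 96.4 ± 3.41 with olaparib and 96.3 ± 4.54 with MNA and was not called. With MNA replicate 2 left out the lists held more calls between MNA and DMSO: 2 up and 3 down for the other hexose carriers, 3 up and 2 down for the hexose kinase and phosphofructokinase genes, 6 up and 3 down for the glycolysis enzymes, 5 up and 5 down for lactate and pyruvate fate. The pentose phosphate branch then had 5 up and 1 down, the glycogen genes 5 up and 3 down and the hypoxia list 3 up and 9 down, where 27.2% of all tested genes rose and 26.9% fell. For each list that fit held as many or more calls between olaparib and DMSO, where 22.5% of all tested genes rose and 21.2% fell. The other hexose carriers had 3 up and 1 down, the hexose kinase and phosphofructokinase genes 3 up and 1 down, the glycolysis enzymes 5 up and 1 down, lactate and pyruvate fate 5 up and 2 down, the pentose phosphate branch 6 up and 0 down, the glycogen genes 4 up and 2 down and the hypoxia list 2 up and 6 down. With olaparib and DMSO fitted alone the kinase list had 4 up and 1 down and the other lists had the counts just given. Between olaparib and MNA without replicate 2 the lists held, in the same order, 2 up and 1 down, 2 up and 3 down, 4 up and 3 down, 6 up and 4 down, 1 up and 1 down, 4 up and 2 down, and 5 up and 3 down, where 21.5% of all tested genes were higher with olaparib and 20.7% lower.

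**Figure D4:**
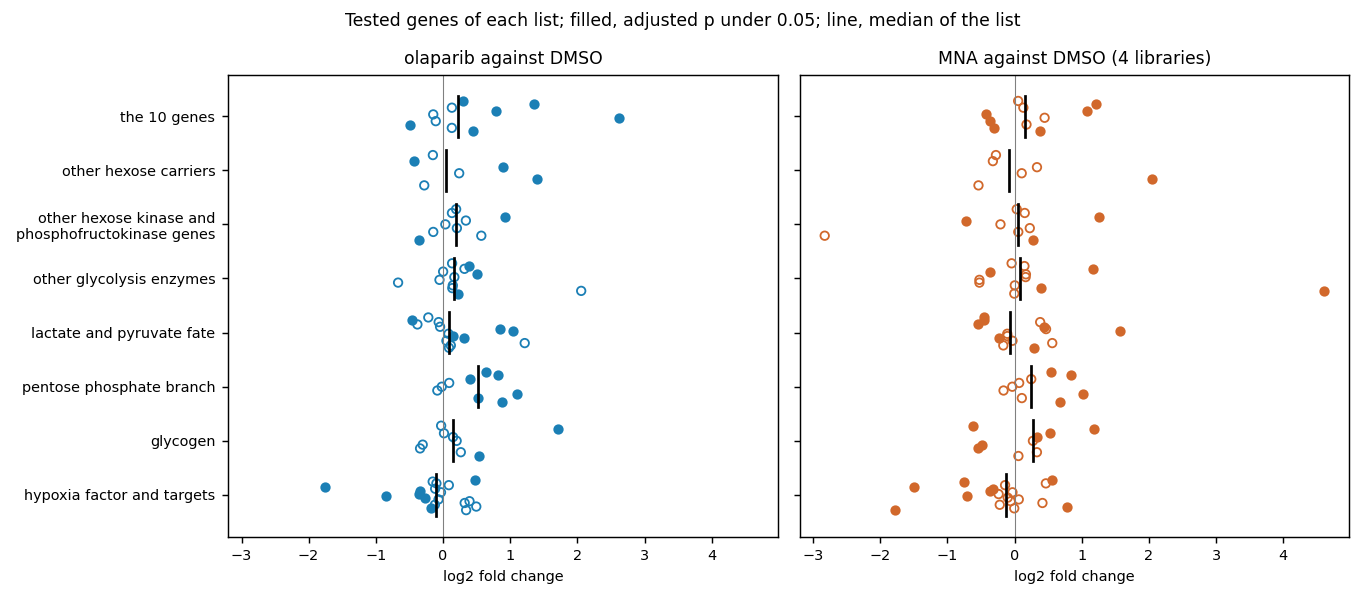
Log2 fold change against DMSO of every tested gene of the 8 lists, with olaparib on the left and MNA (4 libraries) on the right. Filled points have an edgeR adjusted p under 0.05, and the vertical line is the median of the list. The pentose phosphate branch has the highest median with olaparib (0.53), and the hypoxia list has medians below 0 with both agents.

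For each gene called in any comparison, the tested gene most like it across the 12 libraries was found by the Pearson correlation of log2 CPM, given as a description because the libraries share groups, depth and MNA replicate 2. These were Dnaja1 for Slc2a1 (r = 0.955), Crlf3 for Hk1 (0.987), Tbc1d2 for Hk2 (0.947) and Bid for Hk3 (0.984). Rogdi was the most like Pfkl (0.993), Wwp2 like Pfkfb3 (0.967), C3ar1 like Ldha (0.978), Alox5ap like Ldhb (0.987) and Tifab like Slc16a3 (0.990).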

How the data were processed

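RNA was measured in 12 libraries of BMDMs, 4 per group. Raw read counts per Ensembl gene were deposited by the authors, made with STAR 2.5.2b on GRCm38.p5 per the submitters' processing notes. The strand column used is not given in the sources used here. GENCODE (GRCm38) gave symbols and exon lengths, and RefSeq gave promoter windows. The 10 genes and the lists were chosen with earlier results of these data known. The named genes are the 10 genes, the gene most alike to each one called, and the 3 genes of smallest p per list and comparison, of which 1 is not reported here. Tests used edgeR 4.0.16 in R 4.3.3 (quasi-likelihood F test, TMM normalization, filterByExpr with a minimum count of 10 and a minimum total of 15) in 1 fit of 12 libraries, adjusted by Benjamini-Hochberg over all 12849 tested genes and called under 0.05. Intervals are 1.96 standard errors either side. CPM are of the TMM-normalized library, per kb of the union of exons where genes are compared. The script was tested on simulated counts with the same spread for every gene and no library apart from its group. That test therefore does not cover a library such as MNA replicate 2. DESeq2 1.42.0, other scalings, filters, a block and each library left out were the alternatives. Same-numbered libraries deviated together for olaparib and DMSO (r of 0.172 to 0.408 over genes), not in every pair with MNA. The labels name no separate cultures, so p-values measure the spread between libraries, which may be technical. Total counts limit the precision of low genes such as Ldhb.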

Additional observations from a re-analysis of the deposited data

Results flagged for a closer look

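In 4 of the 30 groups of 4 libraries (10 genes in 3 groups), the highest or lowest library lay far from the others, its gap to the nearest library taking most of the range (past the 95% limit of Dixon's test). Chance alone marks about 1 in 20 groups. Slc2a1 was at 100.3 CPM in MNA replicate 4, above the other MNA libraries. Hk1 was at 98.5 CPM in olaparib replicate 4, and Hk3 was at 739.6 CPM in olaparib replicate 3, each the highest of its group. Pfkl was at 17.4 CPM in MNA replicate 2, the lowest of its group.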

How the results depend on the processing

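For the gene and comparison pairs called with all libraries, no alternative changed the sign of the fold change. Among pairs never called, the value was above 0 in 21 of 23 settings for Hk1 and for Slc16a3 and in 15 for Pkm, all between olaparib and MNA, and in 22 for Slc2a1 with MNA, the reported setting included. Over the 10 genes and 3 comparisons, 595 alternative values kept their side of the threshold, 50 lost the call and 15 gained one, of which Ldha between the agents was also called with upper-quartile scaling (edgeR adjusted p = 0.0488) and with a mean of at least 50 counts (edgeR adjusted p = 0.0457). With an adjusted p under 0.01, 0 of the 10 genes were up and 0 down with MNA, as were 0 and 0 of all 12849 tested genes. With olaparib that threshold left 4 up and 1 down, where 852 of all tested genes were up and 530 down. With MNA and DMSO fitted alone, 0 of the 10 genes were up and 0 down, and 0 of all 12379 genes in that fit were called. Leaving out 1 library gave 0 to 6 genes up and 0 to 3 down with MNA against DMSO, and 2 to 5 up and 1 to 2 down with olaparib against MNA. The highest counts came without MNA replicate 2. The replicate block changed no call (olaparib 5 up and 1 down, MNA 3 up and 3 down), and with the block and without MNA replicate 2 there were 6 up with MNA, and 5 up and 2 down for olaparib against MNA. The cause of the losses was not tested. By the longest transcript, the Hk3 share was 87.8% with DMSO, 81.1% with olaparib and 89.1% with MNA, and the Ldhb share was 0.584% with DMSO and 3.73% with olaparib. The common dispersion was 0.0333 with all libraries and 0.0123 without MNA replicate 2.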
